A study of Mus musculus with 9 samples.

Results

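The comparison described here sets mouse submandibular salivary glands taken 14 days after partial resection against glands taken 3 days after mock surgery. Its members are all 3 arrays whose labels give 14 days of healing after resection and all 3 whose labels give mock surgery, 6 of the 9 arrays in the series. All 22206 transcript clusters of the Clariom S array were tested, a transcript cluster being the set of probes that stands for the transcripts of a gene. The animals were female mice of strain C57BL6/J, 12 weeks old and kept on a 12 hour light/dark cycle. The other 3 arrays, from glands resected 3 days earlier, enter the statistical model and are given beside a result where the day matters. The labels describe mock surgery with healing for 3 days only, so resection and the time since surgery cannot be told apart on day 14. The sources used here give neither the hour at which glands were collected nor whether an array holds the RNA of 1 animal or of several.

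The submandibular gland makes saliva in serous acini and, in rodents, stores growth factors and kallikreins in a duct segment, the granular convoluted tubule. Like most organs it contains a circadian clock. In that clock BMAL1 (gene Arntl) pairs with CLOCK or NPAS2 on DNA elements called E-boxes and switches on the period, cryptochrome and Rev-erb genes, whose products switch the activators off again. Proteins of the same loop act on D-boxes (DBP, TEF and HLF as activators, NFIL3 as a repressor) and on ROR elements (ROR proteins as activators, Rev-erb proteins as repressors), and through these sites reach many output genes.

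Stretches of promoter that carry such elements are printed for 5 of the clock genes that passed the threshold, because clock genes head the changes described next and these windows hold a match. Promoter windows of 250 bases before to 50 bases after the annotated start were taken from RefSeq, assembly GRCm38.p6, and searched on both strands for the E-box CACGTG, the D-box spelled TTATGTAA or TTACGTAA, and the ROR element, the letters AAN followed directly by TAGGTCA. These motifs do not overlap each other in the stretches shown. Capitals mark the motif, and each stretch reads 5′ to 3′ along the gene's strand.
Ciart, E-boxes, chr3:95882256-95882355, minus strand: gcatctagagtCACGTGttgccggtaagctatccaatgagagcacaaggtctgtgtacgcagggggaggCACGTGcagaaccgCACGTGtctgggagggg
Bhlhe41, E-box, chr6:145865551-145865590, minus strand: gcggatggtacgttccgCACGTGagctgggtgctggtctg
Tef, E-box, chr15:81802529-81802568, plus strand: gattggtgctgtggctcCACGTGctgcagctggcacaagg
Per3, D-boxes, chr4:151044809-151044878, minus strand: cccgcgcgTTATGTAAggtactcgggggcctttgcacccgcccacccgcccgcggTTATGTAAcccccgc
Arntl, ROR element, chr7:113207528-113207557, plus strand: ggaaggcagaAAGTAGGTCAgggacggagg
The E-boxes of Ciart lay 116, 58 and 44 bases before its start, that of Bhlhe41 153 bases before, and that of Tef 127 bases before the start shown. The D-boxes of Per3 lay 205 and 158 bases before its start, and the ROR element of Arntl began at base 28 of the transcript.

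The comparison held a small set of changes. Of 22206 transcript clusters, 34 passed a Benjamini-Hochberg adjusted p of 0.05 in limma (0.153%), 22 of them higher (0.0991%) and 12 lower (0.0540%) on day 14 than in mock glands. The set holds 20 transcript clusters with a gene symbol, 9 higher and 11 lower, and 14 without one, 13 higher and 1 lower. In all 34 the 3 day 14 arrays lay wholly above the 3 mock arrays, as in 6.03% of all transcript clusters, or wholly below them, as in 6.99%. The 34 were picked on these same arrays, so their separation is no added support. The smallest difference was 1.22 on the log2 scale. The median difference over all transcript clusters was 0.00. A gene list of the sizes used below would seldom hold a call at a share of 0.153%, so a count of 0 called says little by itself. A looser rule, an unadjusted p under 0.05 with a difference of at least 1 log2, was met by 266 transcript clusters (1.20%), 110 higher (0.495%) and 156 lower (0.703%). The counts of adjusted calls depended on single arrays. Without mock replicate 3 they were 58 in all, 25 higher and 33 lower. Without day 14 replicate 2 they were 20, 14 and 6, without day 14 replicate 3 they were 22, 13 and 9, without mock replicate 1 they were 26, 19 and 7, and without mock replicate 2 they were 25, 14 and 11.

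**Figure D1:**
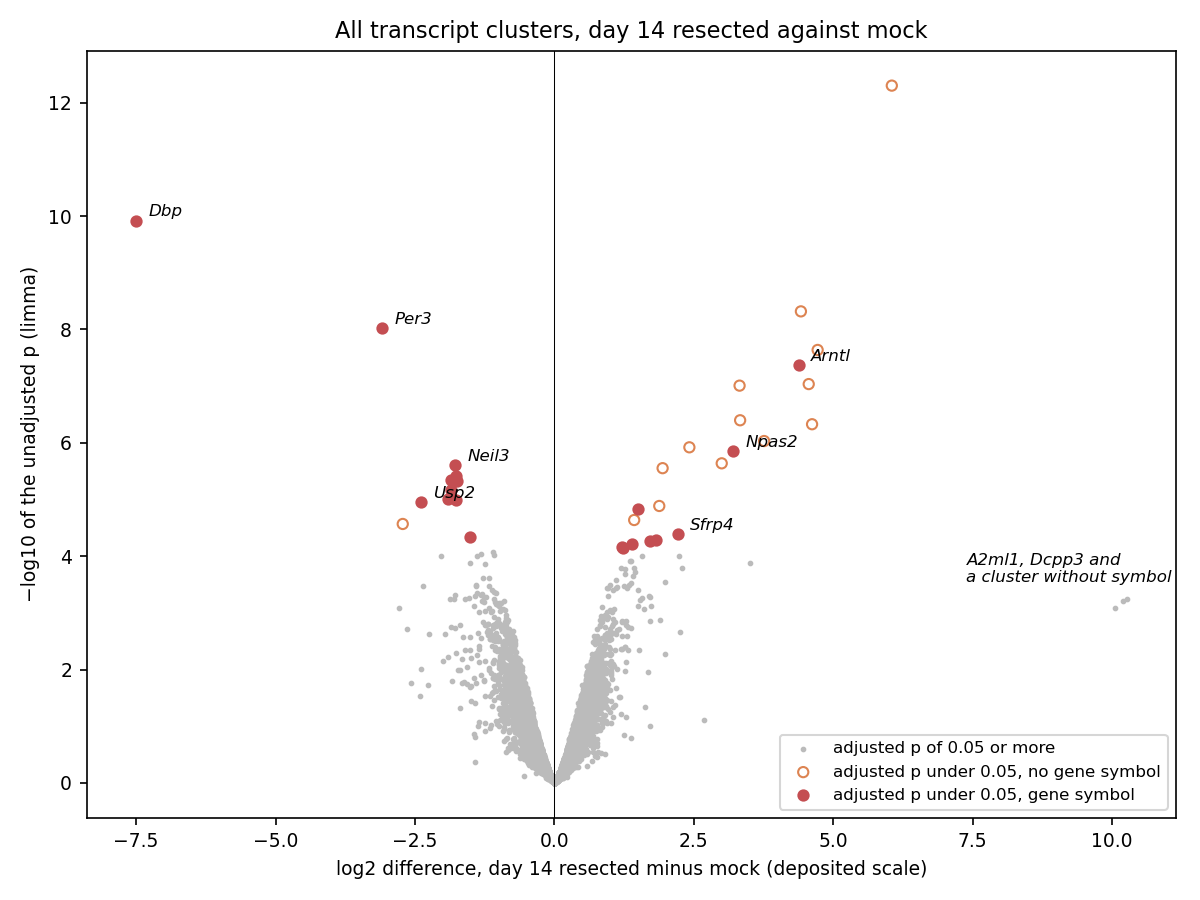
Log2 difference of day 14 resected minus mock (x axis, deposited scale) against −log10 of the unadjusted limma p (y axis) for 22206 transcript clusters. Filled points passed the adjusted threshold and have a gene symbol (20), open circles passed without a symbol (14), and grey points did not pass. Dbp stands alone on the left at -7.50, and A2ml1, Dcpp3 and a transcript cluster without a symbol stand near 10 on the right without passing.

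Of 6 measured clock activators 2 rose (Arntl and Npas2) and 0 fell, where 0.0991% of all transcript clusters passed higher. The list's median was 0.49, and 0.96 without the dimmest 30% of transcript clusters. Arntl read 7.39, 6.85 and 7.13 on the mock arrays and 11.39, 12.39 and 10.73 on the day 14 arrays. The lowest day 14 array stood more than 3 log2 units above the highest mock array, and the gene rose by 4.38 ± 0.38 (log2 difference ± standard error, n = 3 per group, limma adjusted p = 1.6e-04). Npas2, which can replace CLOCK as the partner of BMAL1, read 5.48, 5.11 and 6.81 in mock and 8.88, 9.36 and 8.79 on day 14. Its groups did not overlap, although mock replicate 3 was higher than the other mock arrays, and it rose by 3.21 ± 0.38 (adjusted p = 0.00239). Clock itself read 13.46, 13.26 and 13.31 against 14.29, 14.34 and 14.27, a difference of 0.96 ± 0.21 that did not pass (adjusted p = 0.137) although every day 14 array was above every mock array. It passed in 1 of 15 alternatives, limma-trend (adjusted p = 0.0392). The other 3 measured activators, Arntl2, Rora and Rorb, overlapped between the groups with differences from -0.55 to 0.01.

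Of 10 measured clock repressors 3 fell and 0 rose, where 0.0540% of all transcript clusters passed lower. The looser rule was met below mock by 7 (0.703% of all transcript clusters), and in the same number all day 14 arrays were below all mock arrays (6.99%). The list's median difference was -1.51, from -1.68 to -1.15 over the alternatives run on lists. Per3, a period gene, read 7.62, 7.82 and 7.82 in mock glands and 4.90, 4.32 and 4.76 on day 14. It fell by 3.09 ± 0.23 (adjusted p = 5.3e-05), a gap far wider than the spread within either group. Bhlhe41 (DEC2), a basic helix-loop-helix repressor that competes for E-boxes, read 9.06, 9.98 and 9.31 against 7.77, 7.33 and 7.68 and fell by 1.85 ± 0.25 (adjusted p = 0.00739). Ciart (CHRONO), which represses the BMAL1 complex, read 5.96, 5.86 and 5.69 against 3.76, 4.06 and 3.98 and fell by 1.90 ± 0.27 (adjusted p = 0.0102).

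The remaining repressors did not pass. Nr1d2 (Rev-erb beta) came closest, at 11.56, 12.31 and 12.36 in mock and 10.52, 9.06 and 10.58 on day 14, a difference of -2.03 ± 0.37 (adjusted p = 0.0566), and passed in 4 of 15 alternatives (lowest adjusted p = 0.029). Nr1d1 (Rev-erb alpha) had the larger difference on paper, -2.41 ± 0.98 (adjusted p = 0.56), but its day 14 arrays read 10.34, 6.31 and 11.23 beside 11.95, 11.22 and 11.94 in mock. Day 14 replicate 2 stood far below the other arrays, and the groups overlapped. Per1 (-1.13 ± 0.38), Per2 (-0.78 ± 0.32) and Bhlhe40 (-1.16 ± 0.31) were below mock on every array with adjusted p of 0.272 to 0.565. Cry1 (0.64) and Cry2 (-0.27), the measured cryptochromes, overlapped between the groups.

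Among clock outputs the change of Dbp exceeded that of any other gene past the threshold. Dbp, a D-box activator, read 16.39, 15.69 and 15.28 on the mock arrays and 8.80, 7.29 and 8.75 on the day 14 arrays. It fell by 7.50 ± 0.40 (adjusted p = 1.3e-06), and its highest day 14 array was more than 6 log2 units below its lowest mock array. Tef, its relative, read 5.43, 4.81 and 5.13 against 3.68, 3.03 and 3.36 and fell by 1.76 ± 0.25 (adjusted p = 0.0102), with a day 14 level under the median of the array's control rows (4.97). The third member of that family, Hlf, read 2.98 to 3.76 on the 6 arrays and overlapped. Usp2, a deubiquitinase, read 8.41, 9.03 and 7.42 against 5.63, 5.83 and 6.21 and fell by 2.40 ± 0.34 (adjusted p = 0.0104). Nfil3, the D-box repressor, lay in the other direction at 5.73, 8.98 and 7.67 in mock and 9.44, 10.12 and 9.60 on day 14. The mock arrays spread over more than 3 log2 units, and the difference of 2.26 ± 0.59 did not pass (adjusted p = 0.252). Of 15 measured outputs 3 fell, 0 rose, 6 lay wholly below and 1 wholly above mock. Of all transcript clusters 0.0540% passed lower, 6.99% lay wholly below and 6.03% wholly above. The median was -0.72, and -0.40 without mock replicate 2.

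**Figure D2:**
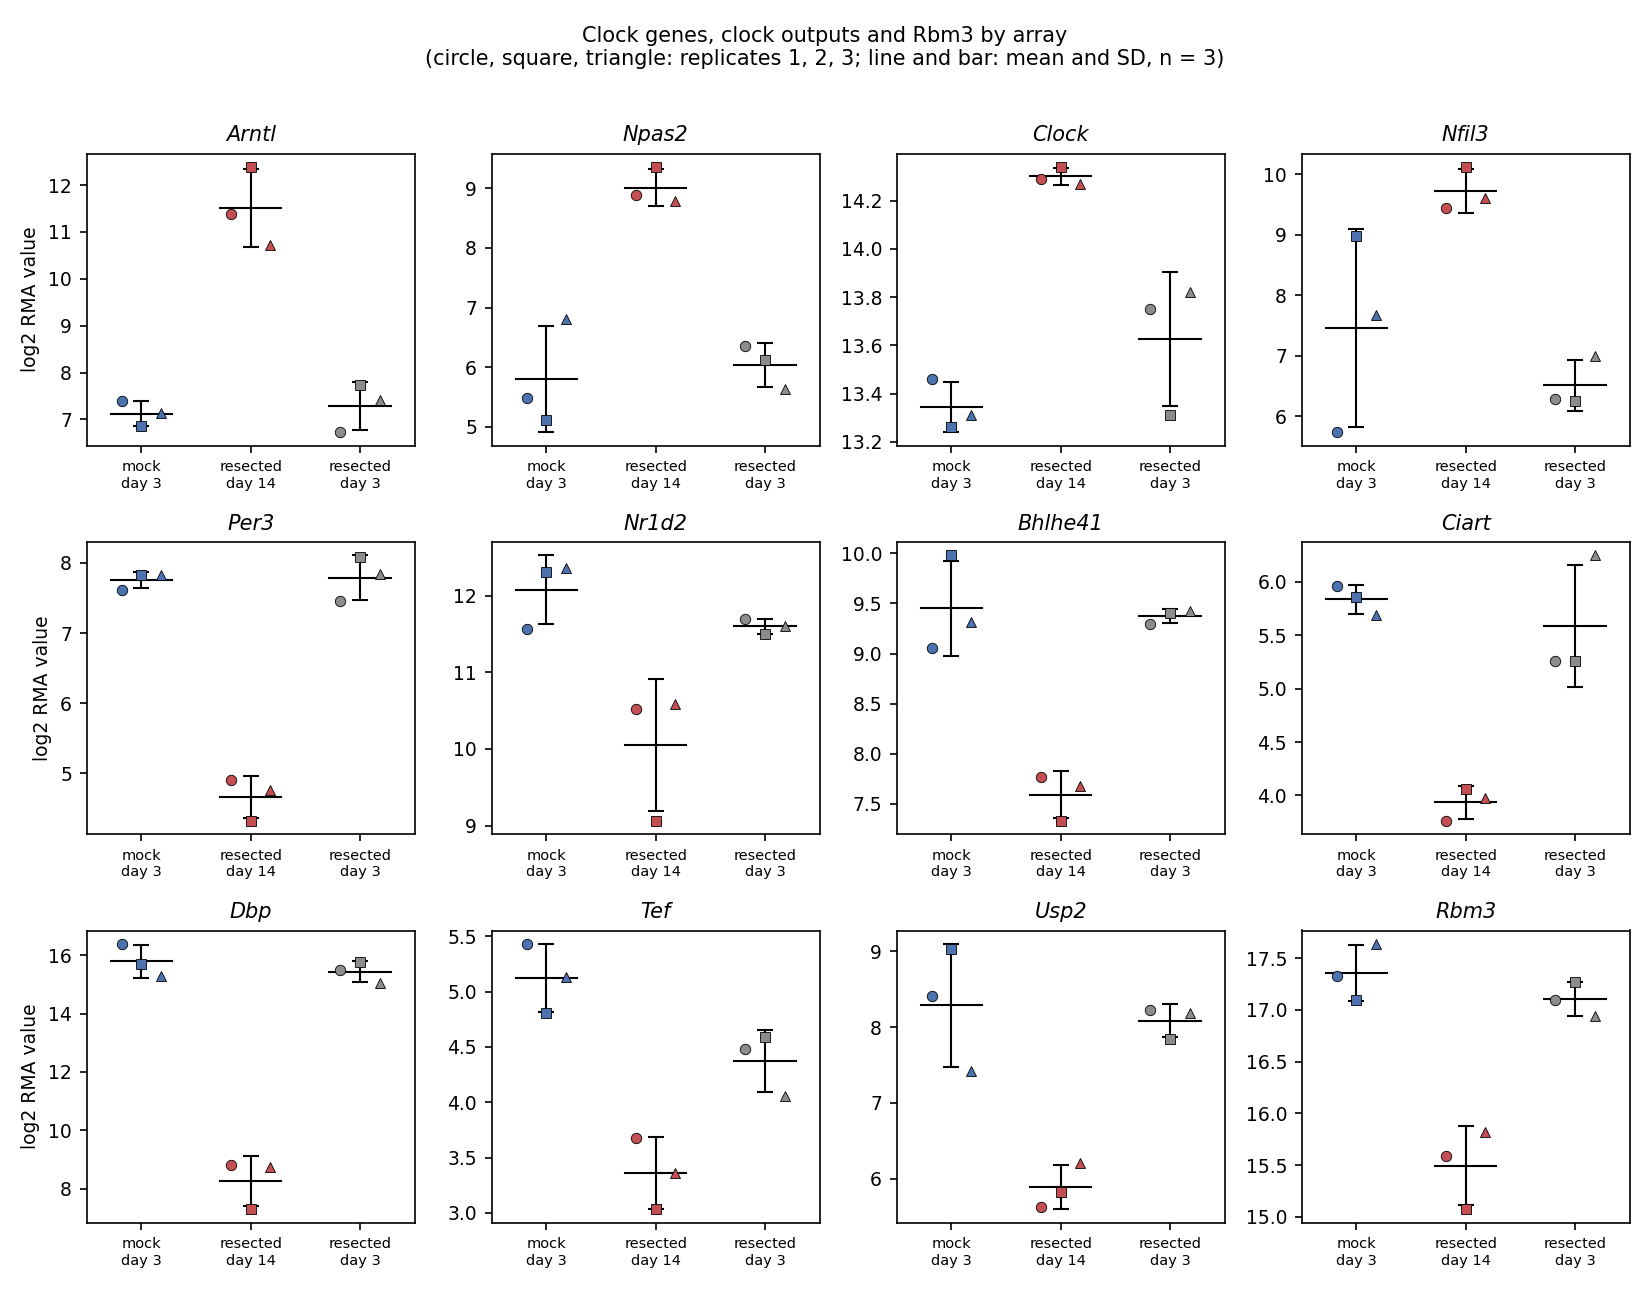
Deposited log2 RMA values by array for 12 genes, with mock day 3, resected day 14 and resected day 3 on the x axis. Circles, squares and triangles are replicates 1, 2 and 3, and lines with bars are the mean and SD of 3 arrays. Arntl and Npas2 are high and Dbp, Per3, Bhlhe41, Ciart, Tef, Usp2 and Rbm3 low on day 14, while the day 3 resected arrays of these genes, apart from Tef, lie near mock.

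The day 3 resected arrays allow the days to be compared with the mock arrays left out. For clock genes past the threshold the test of day 14 against day 3 resected passed as well (6.28% of all transcript clusters passed it, 1.40% higher and 4.88% lower). That test reuses the day 14 arrays and the fitted variance by which these genes were picked, so it is not an independent check. Arntl was higher on day 14 by 4.22 (adjusted p = 3.2e-05) and Npas2 by 2.97 (adjusted p = 2.9e-04). Dbp was lower by 7.15 (adjusted p = 1.2e-06), and Per3, Bhlhe41, Ciart, Usp2 and Tef differed by -3.13, -1.77, -1.66, -2.19 and -1.02 with adjusted p of 1.0e-05 to 0.0283. Against mock, the same genes on day 3 ranged from -0.74 for Tef to 0.23 for Npas2, and 0 of these 8 passed, where 6.27% of all transcript clusters did (4.92% higher and 1.36% lower). No hour of collection is known for any array, and its part in these values was not tested.

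Promoter matches were counted over all genes past the threshold. Of 11 lower genes 10 had a RefSeq window, and an E-box lay in that of 5 (Bhlhe41, Ciart, Dnase1, Echdc2 and Tef), where 7.15% of all 32851 windows hold one. Some genes have several starts and so several windows. A gene was counted if any of its windows matched, so shares of windows are not directly comparable with counts of genes. A D-box was found for 1 of the 10 (Per3), against 1.06% of all windows, and a ROR element for 0. Of 9 higher genes 7 had a window, with a ROR element for 2 (Arntl and Tjp3, against 0.219%), an E-box for 1 (Tjp3) and a D-box for 0. Over the 31 measured clock and output genes, 27 of which had a window, an E-box was found for 7, a D-box for 3 and a ROR element for 1. A match describes letters in a window and says nothing of binding in the gland.

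Outside the clock lists, 5 more genes with a symbol fell. Neil3, a DNA glycosylase of dividing cells, read 6.22, 6.14 and 6.08 in mock and 4.55, 4.22 and 4.30 on day 14, and fell by 1.79 ± 0.22 (adjusted p = 0.00374). On day 3 after resection it had been higher than in mock, by 1.65, so its groups stood in the order day 14, mock, day 3. Rbm3, an RNA-binding protein induced by mild cold, read 17.33, 17.10 and 17.64 against 15.59, 15.07 and 15.82 and fell by 1.86 ± 0.24 (adjusted p = 0.00552). Tspan1, a tetraspanin of epithelial cells, read 9.46, 9.78 and 10.17 against 7.86, 8.21 and 8.14 and fell by 1.74 ± 0.23 (adjusted p = 0.00566). Neither Rbm3 nor Tspan1 differed from mock past the threshold on day 3 (-0.25 and -0.28), and both were lower on day 14 than on day 3 after resection (adjusted p of 0.00119 and 0.00153).

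For the others the day 3 value was close to the day 14 value. Echdc2, a mitochondrial enoyl-CoA hydratase domain protein, read 7.53, 7.42 and 7.92 in mock and 6.02, 5.63 and 5.91 on day 14. It fell by 1.77 ± 0.23 (adjusted p = 0.00507) beside -1.61 on day 3, and the days did not differ past the threshold (-0.16, adjusted p = 0.773). Dnase1, a secreted endonuclease, read 4.62, 3.99 and 4.71 against 3.03, 2.57 and 3.16 and fell by 1.52 ± 0.25 (adjusted p = 0.0351) beside -1.98 on day 3. Both of its groups averaged below the medians of the control rows (4.86 in mock and 4.97 on day 14), so the size of its fall is uncertain. The comparisons on the 2 days share the mock arrays, so like values in both may partly come from those arrays. The last lower transcript cluster, TC1700001938.mm.2, has no symbol and differed in the manner of Neil3. It read 12.56, 11.92 and 10.61 in mock and 9.08, 8.53 and 9.32 on day 14, a fall of 2.72 ± 0.43 (adjusted p = 0.0221), beside 2.94 above mock on day 3.

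Higher genes with a symbol, apart from Arntl and Npas2, numbered 7. Sfrp4, a secreted Wnt antagonist, read 4.66, 4.85 and 4.16 in mock and 7.23, 6.44 and 6.61 on day 14, and rose by 2.21 ± 0.36 (adjusted p = 0.0328). It stood between mock and the day 3 resected glands, where the difference from mock was 4.44. Sema4g, a transmembrane semaphorin, read 4.17, 4.25 and 5.15 against 6.21, 6.48 and 6.38 and rose by 1.83 ± 0.31 (adjusted p = 0.0376), beside -0.68 on day 3. Spon2, a matrix protein that also acts in innate immunity, read 5.56, 5.26 and 5.11 against 6.47, 7.41 and 7.23 and rose by 1.72 ± 0.29 (adjusted p = 0.0387), beside 1.25 on day 3.

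Ear10, an eosinophil-associated ribonuclease, had narrow groups at 4.91, 4.86 and 4.99 in mock and 6.31, 6.56 and 6.39 on day 14, and rose by 1.50 ± 0.22 (adjusted p = 0.0133), beside 0.02 on day 3. The mock mean of Ear10, 4.92, was close to the median of the control rows in mock (4.86), so the size of its rise is uncertain. The Ear genes are close copies of one another, and whether other family members bind its probes was not tested. Tjp3, a tight junction scaffold protein, read 6.43, 6.52 and 7.22 against 8.12, 8.15 and 8.08 and rose by 1.39 ± 0.24 (adjusted p = 0.0422). Limd2, a LIM domain protein, rose by 1.23 ± 0.21 (adjusted p = 0.0474) and 1700017B05Rik, an uncharacterised gene, by 1.22 ± 0.21 (adjusted p = 0.0472). On day 3 Limd2 already stood 1.28 above mock, whereas 1700017B05Rik stood at 0.12.

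The calls of these genes differed in how firmly they held. Dbp, Per3, Neil3, Echdc2, Rbm3, Tspan1, Npas2 and Arntl passed under all 15 alternatives, including each fit that left out 1 array. Bhlhe41 did not pass without day 14 replicate 2 (adjusted p = 0.0631), and Ciart, Tef and Usp2 did not in 3 to 5 of the fits that left out 1 array, with adjusted p up to 0.0899. Dnase1 lost its call in 7 of 14 alternatives (adjusted p up to 0.192) and TC1700001938.mm.2 in 7 of 15 (up to 0.152), including each fit without 1 day 14 array and the fit of only the 6 arrays compared. Every rise of a gene with a symbol other than Arntl and Npas2 lost its call in 5 to 10 of the 15 alternatives, with adjusted p up to 0.0964 for Ear10 and 0.192 to 0.215 for the others. Their differences stayed positive throughout, at 1.12 or more. Of the 34 called transcript clusters 7 had a group mean below the control rows' median, on day 14 for Ciart, Per3, Neil3 and Tef, in mock for Sfrp4 and Sema4g, and in both for Dnase1. The values used here carry no detection call, so the differences of these 7 may be only bounds.

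**Figure D3:**
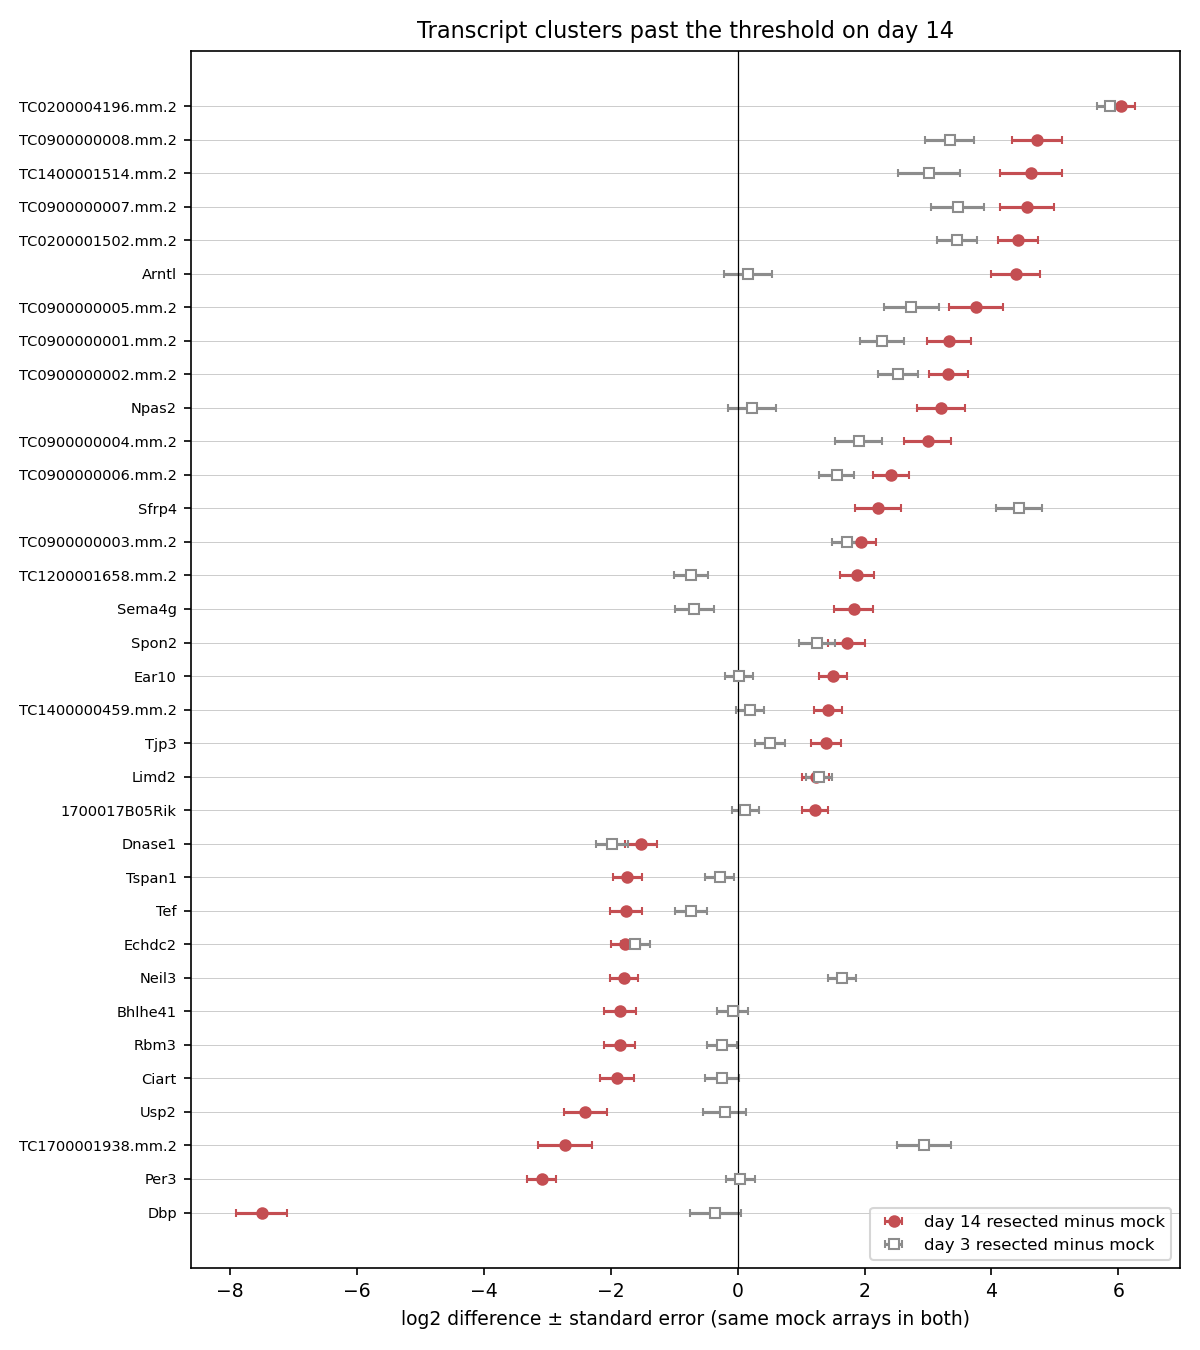
Log2 difference from mock ± standard error for the 34 transcript clusters past the threshold on day 14, for day 14 resected (red circles) and day 3 resected (open grey squares). Both series use the same mock arrays. The clock genes other than Tef (-0.74) are near 0 on day 3, the unnamed transcript clusters at the top are high on both days, and Neil3 and TC1700001938.mm.2 are on opposite sides of 0.

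Of the transcript clusters without a symbol, 11 were higher than mock on both days. Their differences on day 14 ran from 1.94 to 6.05 with a median of 3.76, and on day 3 from 1.56 to 5.87 with a median of 2.74. They were bright on every array, at 9.89 to 17.16 in mock and 14.46 to 19.93 on day 14. TC0200004196.mm.2 read 13.70, 14.08 and 13.86 in mock and 19.92, 19.93 and 19.93 on day 14. The day 14 readings lie at the highest value of the table, 19.93, so its rise of 6.05 ± 0.21 (adjusted p = 1.1e-08) is a lower bound. TC0900000008.mm.2 read 12.83, 13.26 and 13.16 against 17.69, 17.97 and 17.74 and rose by 4.72 ± 0.39 (adjusted p = 1.0e-04). TC0200004196.mm.2 read 19.51 to 19.89 on day 3 after resection, so near the top of the scale that a difference between the days could not show. The test of day 14 against day 3 resected passed for 0 of the other 10 (adjusted p of 0.0542 to 0.693). Day 3 resected replicate 3 was the lowest of its group in all 11, so that array lay between mock and the other resected arrays. All 11 calls held under every alternative that kept the transcript cluster in the fit. Identifiers of 8 of them are numbered in sequence, and the tables used here give no gene for any of the 11.

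A few genes differed by far more than any called gene without passing. Dcpp3, of the secreted demilune cell and parotid protein family, read 6.28, 8.17 and 5.80 in mock and 17.06, 19.71 and 14.05 on day 14. The groups lay almost 6 log2 units apart, yet the difference of 10.19 ± 2.25 had an adjusted p of 0.143. The day 3 resected arrays read 16.70, 7.80 and 19.69, and this spread enters the model's common variance. With only the 6 arrays compared, the difference was 10.19 ± 1.14 and passed (adjusted p = 0.00601), the 1 of 15 alternatives that called it.

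A2ml1, an inhibitor of the alpha-2-macroglobulin type, was picked out after its values were seen. It read 5.47, 4.91 and 5.08 in mock and 15.11, 19.30 and 11.84 on day 14, a difference of 10.26 ± 2.24 (adjusted p = 0.137, and 0.02 with only the 6 arrays compared). On day 3 after resection it read 14.36, 6.79 and 18.12, so the same array, replicate 2, was low for both genes. A transcript cluster without a symbol followed them at 10.06 ± 2.31 (adjusted p = 0.167, and 0.0163 with only the 6 arrays compared). These 3 were the only transcript clusters to differ by more than 8 log2 units. On day 14 all 3 were highest in replicate 2 and lowest in replicate 3.

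Bpifa2, a secreted protein abundant in parotid saliva, had the same order on day 14. It read 13.50, 14.09 and 14.02 in mock and 15.46, 19.93 and 14.27 on day 14, a difference of 2.69 ± 1.40 (adjusted p = 0.659), and replicate 2 was at the highest value of the table. Among genes of a list of sublingual and parotid products, Smgc, a mucin-like product of submandibular and sublingual glands, read 15.33, 18.63 and 18.07 on day 14 around mock values of 17.53 to 18.23. The mucin Muc5b and the amylase Amy1 overlapped between groups at differences of 0.05 and -0.63. Of the 16 measured genes in that list, 2 (Dcpp3 and Prp2) lay wholly above mock and 1 (Agr2) wholly below, beside 6.03% and 6.99% of all transcript clusters. The median was 0.07 and ran from -0.10 without day 14 replicate 2 to 0.39 without the dimmest 30%. Whether neighbouring glandular tissue contributed to the arrays with high Dcpp3 was not tested.

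**Figure D4:**
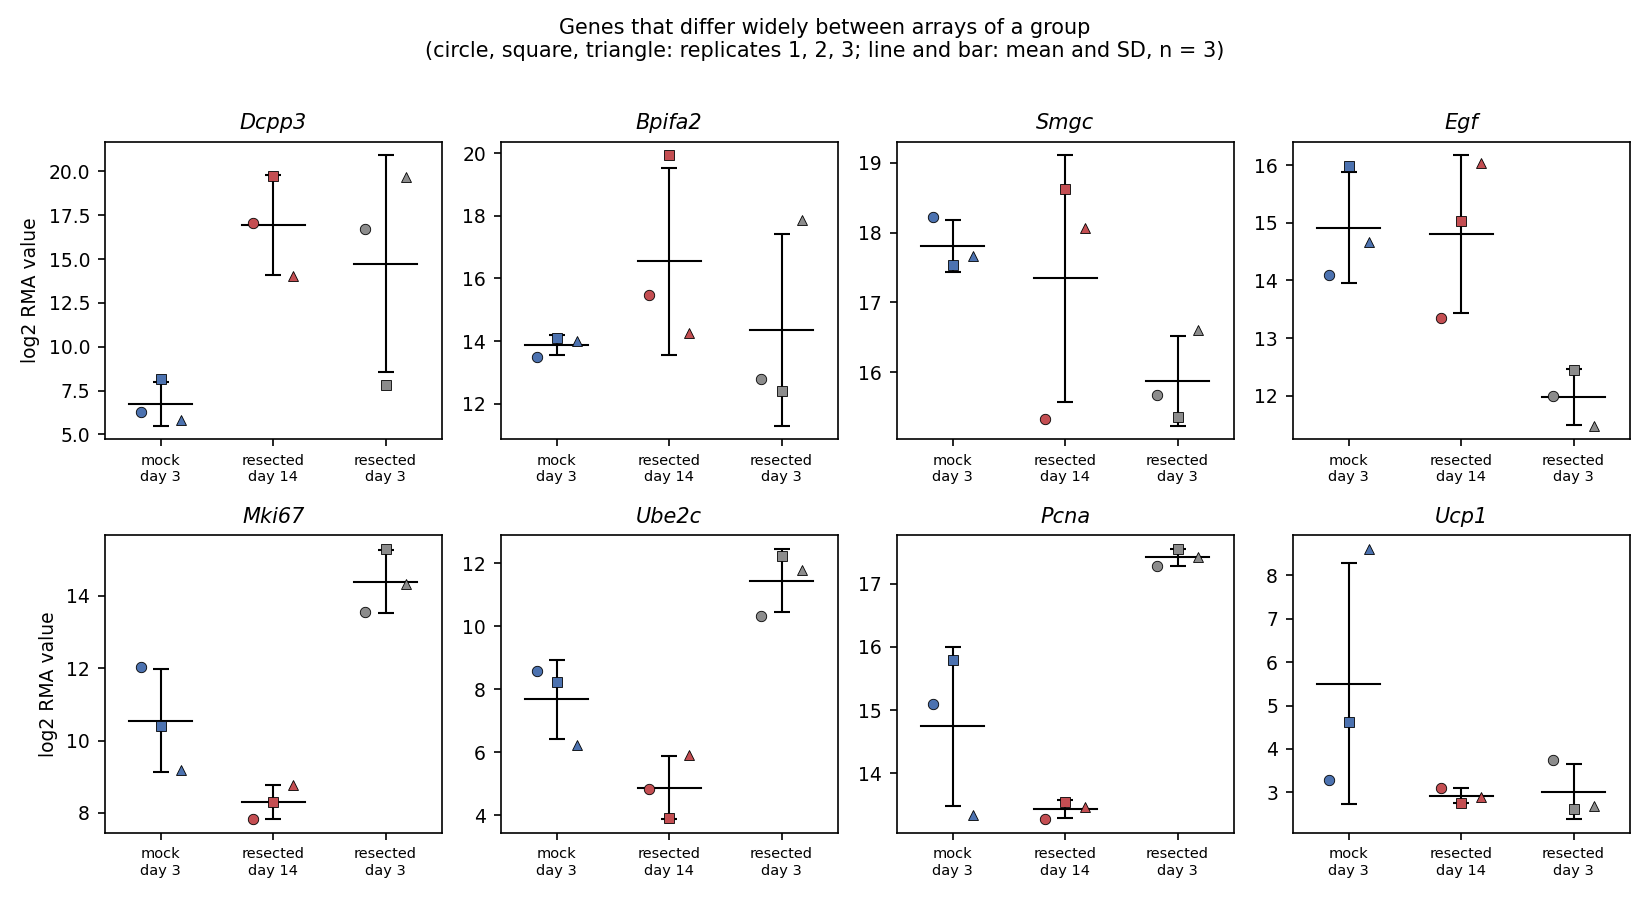
Deposited log2 RMA values by array for 8 genes that varied within groups, with symbols as for the clock genes and a separate y axis for each gene. Dcpp3 is above mock on all 3 day 14 arrays but low on 1 day 3 resected array, Bpifa2 is at the array maximum on day 14 replicate 2, and mock replicate 3 is low for Mki67, Ube2c and Pcna and high for Ucp1.

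Of the gland's own products few differed past the threshold. The acinar products Prol1, Pip and Car6 and the kallikrein Klk1 were at 19.92 or 19.93 on all 6 arrays, the top of the scale, which fits the labelled tissue but hides any change. The water channel Aqp5 read 13.75 to 15.10 over the 6 arrays and differed by 0.16 ± 0.34. Of 15 granular tubule products 0 passed (0.153% of all transcript clusters did), the median difference was 0.00, and 6 were at the array maximum on at least 1 array. Egf, the growth factor of those tubules, read 14.10, 15.98 and 14.66 in mock and 13.34, 15.04 and 16.04 on day 14 (-0.11 ± 0.59, adjusted p = 0.981). On day 3 after resection 8 of these 15 had been lower than mock, and 7 were higher on day 14 than on day 3 after resection, where 1.36% and 1.40% of all transcript clusters passed those tests. Of 19 serous acinar genes 1 fell (Dnase1, above), where 0.0540% of all transcript clusters passed lower, and the median was 0.00. Of these 19, 4 were at the array maximum on at least 1 array. Of 23 duct genes 0 passed, where 0.153% of all transcript clusters did, and the median was 0.07. Gstt1, a glutathione transferase in the duct list, was nearest to the threshold at 1.37 ± 0.25 (adjusted p = 0.0626), and passed in 3 of 15 alternatives.

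Of 36 measured cell cycle genes 0 passed, and the difference was negative in 35. The looser rule was met below mock by 10 (0.703% of all transcript clusters), 7 lay wholly below mock (6.99%) and 0 above, and the median was -0.90. Ube2c, which attaches ubiquitin to mitotic proteins, read 8.57, 8.23 and 6.25 in mock and 4.83, 3.91 and 5.92 on day 14 (-2.79 ± 0.64, adjusted p = 0.168). Mki67, the Ki-67 antigen, read 12.03, 10.41 and 9.19 against 7.83, 8.29 and 8.77 (-2.25 ± 0.59, adjusted p = 0.257), and the topoisomerase Top2a differed by -1.78 ± 0.38 (adjusted p = 0.137). The mock arrays were uneven, with list means of 6.98, 6.94 and 5.43, beside 5.39, 5.46 and 5.57 on day 14. Mock replicate 3 therefore read like the day 14 arrays. Over the alternatives run on lists the median ran from -1.46, without that array, to -0.66. Without mock replicate 3, 5 list members passed (Ube2c, Pcna, Ccna2, Melk and Top2a), among 33 of 22206 transcript clusters that passed lower. Leaving out the mock array nearest to day 14 widens the difference of itself, so these calls are no further evidence of a fall. Against the day 3 resected arrays, whose list means were 8.64, 9.78 and 9.13, 35 of 36 were lower on day 14 (4.88% of all transcript clusters).

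Of 20 measured genes of cholesterol and fatty acid metabolism 0 passed, and the median was -0.85. The looser rule was met by 7 below mock (0.703% of all transcript clusters) and 1 above it (0.495%), and as many lay wholly below (6.99%) or above mock (6.03%). The list means were 10.13, 9.16 and 9.49 in mock and 8.70, 9.07 and 8.72 on day 14, so mock replicate 1 stood highest and mock replicate 2 nearest to day 14. Idi1, an isomerase of the mevalonate pathway, read 10.28, 9.50 and 8.96 in mock and 6.91, 7.64 and 7.16 on day 14, a difference of -2.35 ± 0.48 (adjusted p = 0.115, and 0.0313 with only the 6 arrays compared). Insig1, a sterol sensor of the endoplasmic reticulum, read 16.73, 14.39 and 13.59 against 12.86, 13.44 and 11.63 (-2.26 ± 0.84, adjusted p = 0.518). The synthases Fdps (-1.61 ± 0.47) and Fdft1 (-1.99 ± 0.62) and the demethylase Cyp51 (-1.73 ± 0.57) had adjusted p of 0.325 to 0.442, and mock replicate 1 was the highest of the 6 arrays for each of these 5 genes. The desaturase Scd1 lay in the other direction, at 14.26, 14.33 and 16.75 against 16.90, 17.53 and 16.83 (1.98 ± 0.59, adjusted p = 0.356). Mock replicate 3 was just below the day 14 arrays, and without it Scd1 passed at 2.79 (adjusted p = 0.0184). Leaving out the nearest mock array widens the difference of itself, so this pass is no further evidence of a rise.

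**Figure D5:**
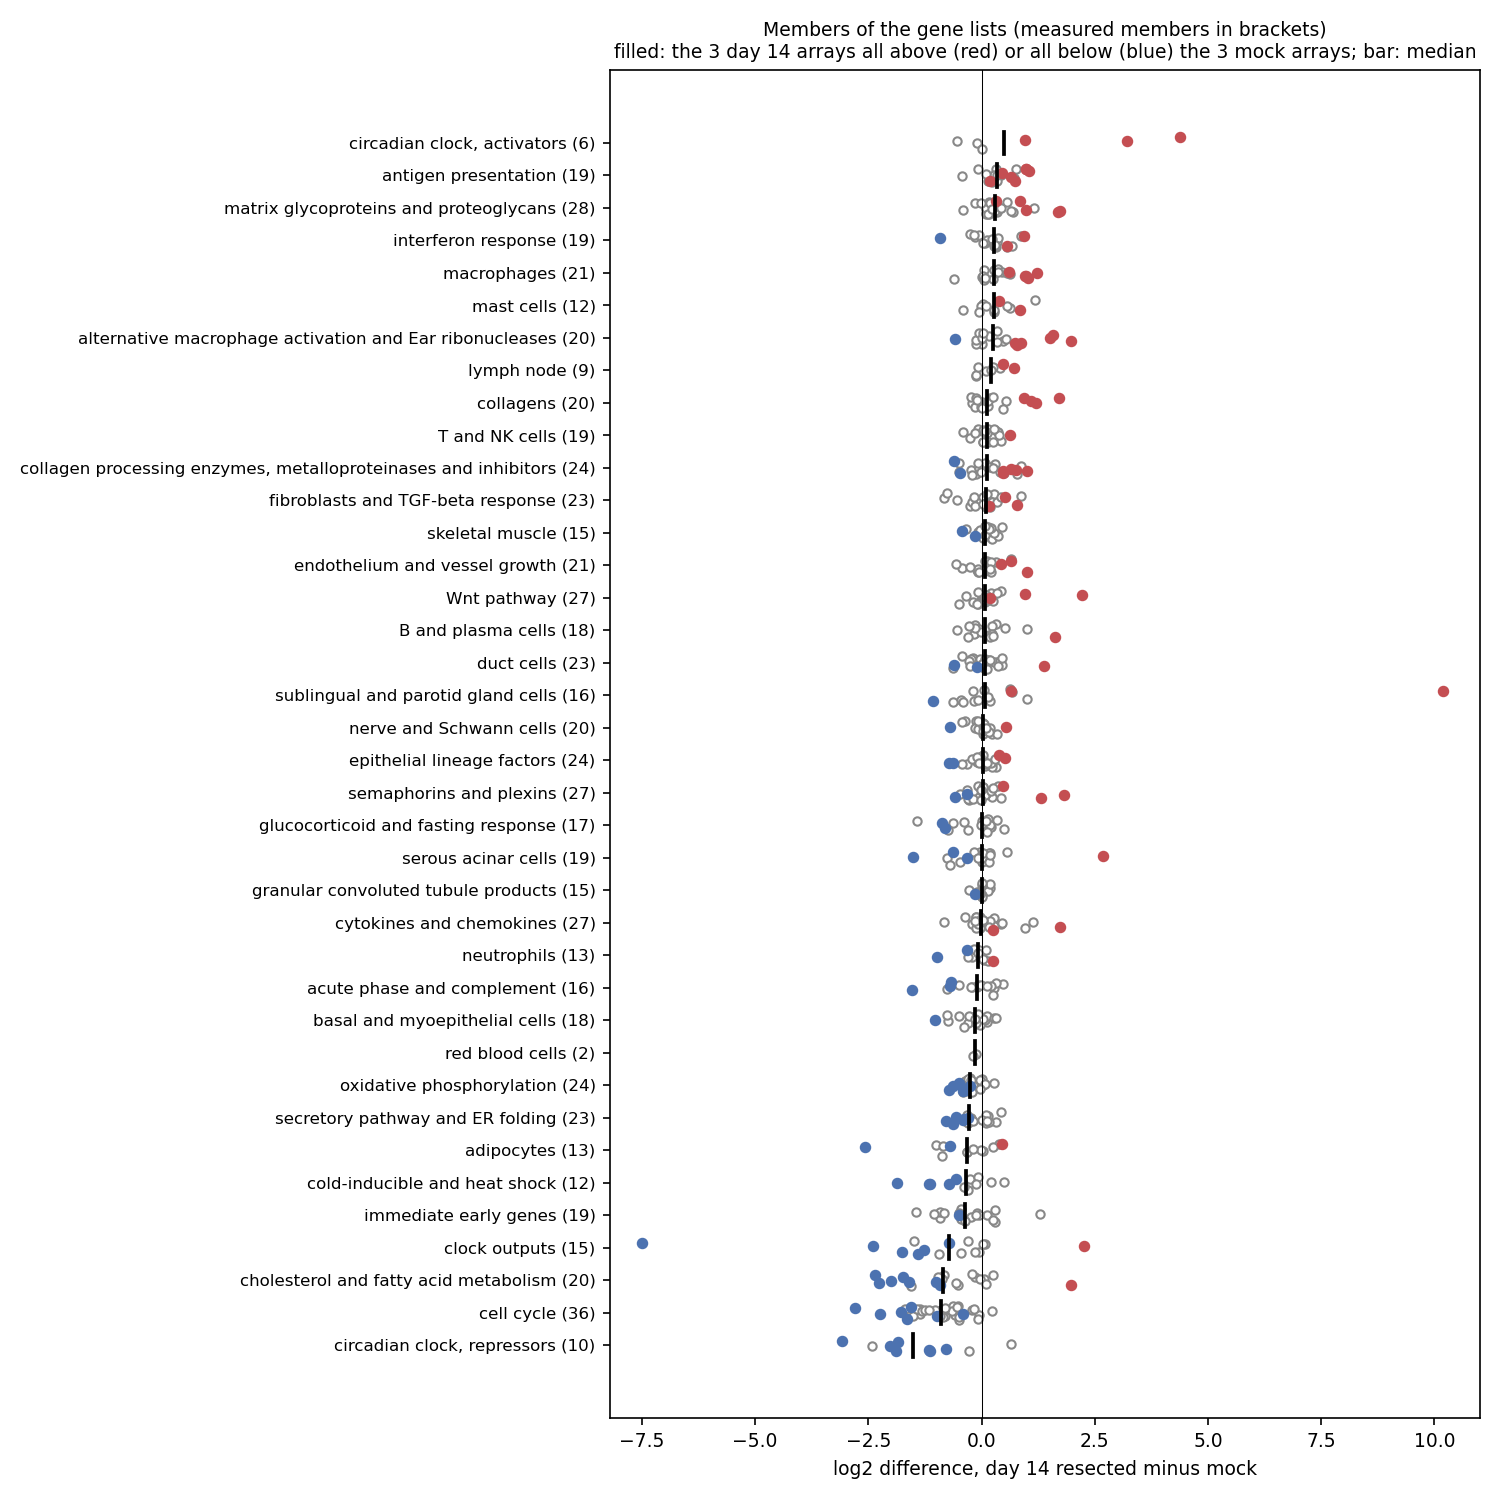
Log2 difference of day 14 resected minus mock (x axis) for the measured members of 38 gene lists (y axis, number measured in brackets), ordered by median (bar). Filled points are genes whose 3 day 14 arrays lay wholly above (red) or below (blue) the 3 mock arrays, and open points overlap. The clock repressors have the lowest median at -1.51, followed by cell cycle (-0.90) and cholesterol and fatty acid metabolism (-0.85), and most other medians lie within 0.35 of 0.

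Of 28 matrix glycoproteins and proteoglycans 1 rose (Spon2), where 0.0991% of all transcript clusters passed higher. In this list 5 lay wholly above mock (6.03% of all transcript clusters) and 0 below. Its differences were positive for 25, and the median was 0.29 (0.16 without mock replicate 3). Of 20 collagens 0 passed, 4 lay wholly above (6.03%) and the median was 0.13 (0.21 without mock replicate 3 and 0.07 without day 14 replicate 2). Col3a1, a fibrillar collagen, read 10.49, 10.86 and 10.66 in mock and 13.17, 12.24 and 11.73 on day 14 (1.71 ± 0.42, adjusted p = 0.22). The adhesive glycoprotein Fn1 read 7.29, 8.04 and 7.26 against 10.53, 9.03 and 8.08 (1.68 ± 0.57, adjusted p = 0.454). For both the day 14 arrays were all above mock, with replicate 1 the highest and replicate 3 the lowest. On day 3 after resection they had differed from mock by 4.69 and 4.86, and both were lower on day 14 than on day 3 (adjusted p of 6.9e-04 and 0.00372).

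Macrophage genes had 0 of 21 called, with 19 positive differences, 5 wholly above mock (background 6.03%) and a median of 0.27 (0.17 without mock replicate 3). Lyz1, a lysozyme, differed by 1.22 ± 0.30 (adjusted p = 0.22) and the complement subunit C1qb by 0.99 ± 0.27 (adjusted p = 0.274). On day 3 after resection 19 of the 21 had passed above mock (4.92% of all transcript clusters), and 19 were lower on day 14 than on day 3 (4.88%). In the list of alternative activation and Ear ribonucleases 1 of 20 rose (Ear10), where 0.0991% of all transcript clusters passed higher. Differences in that list were positive for 13 and negative for 7, down to -0.59. Wholly above mock lay 6 (6.03% of all transcript clusters) and wholly below 1 (6.99%). The median of that list was 0.25 but -0.01 without mock replicate 3, 0.51 without mock replicate 1 and 0.43 without day 14 replicate 3. Retnla, a resistin-like molecule of alternatively activated macrophages, read 9.74, 8.67 and 8.58 in mock and 11.36, 11.23 and 10.35 on day 14 (1.98 ± 0.40, adjusted p = 0.111), and passed in 1 of 15 alternatives. It had stood at 8.64, 7.67 and 7.29 on day 3 after resection, below its day 14 level by 3.12 (adjusted p = 3.1e-04). Mgl2, a lectin of the same cells and of dendritic cells, differed by 1.57 ± 0.34 (adjusted p = 0.137) and passed without mock replicate 1 (adjusted p = 0.0108). Mock replicate 1, at 6.89, was the mock array nearest to day 14 for Mgl2, so the pass without it is no further evidence of a rise. In bulk tissue more cells of a type and more RNA per cell cannot be told apart.

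Antigen presentation genes had 0 of 19 called, 7 wholly above mock (6.03% of all transcript clusters), 0 below and a median of 0.35 (0.58 without day 14 replicate 1). The class II genes H2-Ab1 and H2-Aa each differed by 0.99, and the peptide-loading gene H2-DMb1 by 1.05 ± 0.33 (adjusted p = 0.411). Pigr, the receptor that carries antibodies into saliva, read 15.30, 14.80 and 16.48 in mock and 16.91, 17.16 and 17.33 on day 14 (1.61 ± 0.37, adjusted p = 0.17), and passed without mock replicate 3 at 2.08 (adjusted p = 0.0115). For Pigr mock replicate 3 was the mock array nearest to day 14, so the pass without it is no further evidence of a rise. The acute phase protein Serpina3n lay in the other direction at -1.53 ± 0.33 (adjusted p = 0.137). Lcn2, an iron-binding protein of neutrophils and injured epithelium, read 8.96, 8.58 and 9.18 in mock and 7.09, 8.11 and 8.56 on day 14 (-0.98 ± 0.35, adjusted p = 0.488), below every mock array.

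Heat shock genes varied by member. Of 12 measured cold-inducible and heat shock genes 1 fell (Rbm3) and 0 rose, where 0.0540% of all transcript clusters passed lower and 0.0991% higher. In 5 all day 14 arrays lay below mock (6.99% of all transcript clusters). The median was -0.34 (-0.53 without mock replicate 3 and -0.56 without day 14 replicate 2). The mitochondrial chaperonins Hspd1 and Hspe1 differed by -1.17 ± 0.24 (adjusted p = 0.115, and 0.0421 with limma-trend) and -0.72 ± 0.21 (adjusted p = 0.325), and the inducible chaperone Hspa1b by -1.15 ± 0.31 (adjusted p = 0.272). Cirbp, the other classical cold-inducible RNA-binding protein, read 7.93, 7.66 and 6.91 against 7.76, 7.70 and 8.50 and overlapped (0.49 ± 0.37). Oxidative phosphorylation genes had 0 of 24 called, 7 wholly below (6.99%) and a median of -0.26 (-0.12 without mock replicate 2). Genes of the secretory pathway had 0 of 23 called, 6 wholly below (6.99%) and a median of -0.28 (-0.13 without mock replicate 3).

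Just outside the threshold, higher genes of known identity included Cldn1, a tight junction claudin, at 11.07, 10.60 and 11.71 in mock and 12.83, 12.89 and 12.37 on day 14 (1.57 ± 0.28, adjusted p = 0.0566). Slc23a2, a vitamin C transporter, read 8.81, 9.97 and 10.35 against 12.05, 12.27 and 11.65 (2.28 ± 0.43, adjusted p = 0.0743), and Igfbp5, a binding protein of insulin-like growth factors, differed by 1.27 ± 0.24 (adjusted p = 0.0775). All 3 were higher on day 14 than on day 3 after resection, by 2.14, 2.20 and 1.11 (adjusted p of 4.0e-04, 0.00688 and 0.0141). Without mock replicate 3 Cldn1 passed at 1.86 (adjusted p = 0.0115) and Slc23a2 at 2.60 (adjusted p = 0.0395), and both also passed with limma-trend, with robust variances and without transcript clusters at the array maximum. For Cldn1 and Slc23a2 mock replicate 3 was the mock array nearest to day 14, so the passes without it are no further evidence of a rise. Lower genes near the threshold included Tmem117, a membrane protein, at -1.10 ± 0.19 (adjusted p = 0.0531), and Mcm8, a helicase of DNA repair, at -1.38 ± 0.25 (adjusted p = 0.0566). The replication-linked histone H4bc24 differed by -1.52 ± 0.28 (adjusted p = 0.0626). These 3 passed in 3 or 4 of 15 alternatives, and Igfbp5 in 1.

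The 6 arrays had median log2 values of 5.09 to 5.19. Correlations across transcript clusters were 0.985 to 0.989 for pairs within a group and 0.983 to 0.987 for pairs between groups. The first principal component of the 6 arrays held 29.9% of the variance, with mock at -35.4, -32.5 and -16.4 and day 14 at 31.2, 35.5 and 17.6. On the second (21.3%) mock replicates 1, 2 and 3 lay at 1, -35.7 and 44.8, farther apart than the day 14 arrays (7.8, -17.7 and -0.3). Markers of other tissue varied between arrays. Ucp1, the uncoupling protein of brown fat, read 3.28, 4.61 and 8.61 in mock and 2.76 to 3.10 on day 14, so mock replicate 3 stood apart. The 13 adipocyte genes averaged 5.66, 5.30 and 6.22 in mock and 5.03 to 5.57 on day 14. Of the 13, 2 lay wholly below mock (6.99% of all transcript clusters) and 1 wholly above (6.03%). The 15 skeletal muscle genes averaged 3.52 to 3.77, the 9 lymph node genes 5.10 to 5.74, and their called members numbered 0. Their part in the differences above was not tested. The median of 6640 control rows was 4.97 ± 0.06 (SD, n = 3) on day 14 and 4.86 ± 0.08 in mock (two-sided exact permutation p = 0.2, where the smallest possible is 0.1).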

How the data were processed

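RNA of the glands was hybridised to Clariom S mouse arrays, and the deposited values are log2 expression values that the authors made with Transcriptome Analysis Console 4.0, per the series' design text, and with RMA (robust multi-array average), per the submitters' processing notes. RMA subtracts background, equalises the arrays' distributions and summarises probes per transcript cluster. The highest value is 19.93, reached on all 9 arrays by 17 transcript clusters, so changes there are hidden or bounded. Differences are on the deposited scale and are no calibrated fold changes. The number of arrays limits the precision. Of 28846 rows, 6640 controls were left out. Gene symbols came from the platform's probe table through RefSeq (GRCm38.p6) and were found for 19572 of 22206 transcript clusters. A genome build for the arrays is not given in the sources used here.

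One linear model over all 9 arrays was fitted with limma 3.58.1 in R 4.3.3 (a mean per group, empirical Bayes, 6 residual and 6.63 prior degrees of freedom). Two-sided p-values were adjusted over all transcript clusters (Benjamini-Hochberg), with a threshold of 0.05. Replicates are the design text's biological replicates.

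The members, the 38 gene lists (770 genes, 704 measured, 1 transcript cluster per gene) and the tests were chosen with earlier results of these data known. Named are all genes with a symbol past the threshold, of those without a symbol the largest changes, up to 4 members per list by the moderated statistic, and the 12 nearest to the threshold in each direction among genes with non-overlapping groups and at least 1 log2. Other list members are given as background to their list, and A2ml1 was chosen after its values were seen. Alternatives were other samples in the fit, scaling, filters, variance models, array weights, a replicate block, each array left out, and an unadjusted rule.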

Additional observations from a re-analysis of the deposited data

Results flagged for a closer look

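For 19 of the 34 transcript clusters past the threshold, the difference from mock on day 14 also differed from that on day 3, by limma's test of day 14 against day 3 resected, in which the mock arrays cancel (Benjamini-Hochberg adjusted over all transcript clusters, 6.28% of which passed it). The day 14 arrays by which the 34 were picked enter this test too, so it is not an independent check. Values are day 14 minus day 3 resected on the log2 scale. Clock genes and their outputs gave 4.22 for Arntl, 2.97 for Npas2, -7.15 for Dbp, -3.13 for Per3, -2.19 for Usp2, -1.77 for Bhlhe41, -1.66 for Ciart and -1.02 for Tef. Other lower genes gave -3.44 for Neil3, -1.61 for Rbm3 and -1.46 for Tspan1, and TC1700001938.mm.2, which has no symbol, gave -5.67. Neil3 and TC1700001938.mm.2 lay above mock on day 3 and below it on day 14. Sfrp4, above mock on both days, was lower on day 14 by 2.23 (-2.23).

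Higher on day 14 than on day 3 were Sema4g (2.51), Ear10 (1.48), 1700017B05Rik (1.10) and Tjp3 (0.88). The same held for TC1200001658.mm.2 (2.61) and TC1400000459.mm.2 (1.24), which have no symbol. The groups also differ in the time since surgery, and the hour of collection is not given in the sources used here. The part of either was not tested.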

How the results depend on the processing

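Over 15 alternative fits, 19 of the 34 calls held in each and 15 were lost in at least 1, and 0 of the called genes named here changed sign. Calls rose from 34 to 56 with limma-trend (36 higher, 20 lower), and 266 transcript clusters (110 and 156) met an unadjusted p under 0.05 with at least 1 log2. Leaving out 1 array gave 20 to 58 calls, 13 to 25 of them higher and 6 to 33 lower. The labels do not say whether the replicate numbers pair the samples. Deviations of same-numbered arrays had correlations of -0.013, 0.051 and -0.009, which show no shared shift but cannot exclude a pairing. The fit with a replicate block gave 26 calls (16 and 10), 25 of them among the 34, and also called Retnla (adjusted p = 0.00993). Genes near 0 changed sign without 1 array: Klk1b9 ran from -0.47 to 0.06, Klk1b1 from -0.16 to 0.48, Slc4a1 from -0.33 to 0.05 (0.04 in another fit) and Alas2 from -0.35 to 0.20 (0.01 in another). The cause of these shifts was not tested. For products at the array maximum on all arrays compared, such as Prol1, Pip, Car6 and Klk1, differences could not be measured.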

Other observations

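Several lists that the comparison above does not describe had 0 members past the threshold (limma, adjusted p), where 0.153% of all transcript clusters passed. At that share a list of such a size would seldom hold a call. Their medians were close to the 0.00 of all transcript clusters. The 19 genes of T and NK cells had a median of 0.13, with differences from -0.40 to 0.63. Of these 19, 1 lay wholly above mock (6.03% of all transcript clusters) and 0 wholly below (6.99%). The 1 above was the CD4 co-receptor gene Cd4 (0.63 ± 0.28, adjusted p = 0.585). Cd3e, the defining T cell marker, read 2.85 to 3.41 in mock and 3.21 to 3.70 on day 14 and overlapped. Among the 18 B and plasma cell genes, Pou2af1, a B cell coactivator, read 5.58, 3.28 and 3.96 on day 14 beside 3.22 to 3.29 in mock, so replicate 1 set its difference of 1.01 ± 0.43. Its mock readings were below the control rows' median too, so the size of that difference is uncertain. The 21 endothelial genes had a median of 0.08, with the lymphatic growth factor Vegfc at 1.00 ± 0.23 (adjusted p = 0.17), and the 20 nerve and Schwann cell genes had a median of 0.04. Of the 24 epithelial lineage factors, 2 lay wholly below mock and 2 wholly above, shares near the 6.99% and 6.03% of all transcript clusters. Without mock replicate 3, 29 further transcript clusters passed, 7 higher and 22 lower. Among the 22 were several of cell division outside the lists, such as Pbk (-3.61), Cenpm (-3.58) and Shcbp1 (-2.76), a group picked out after its values were seen. Mock replicate 3 read like the day 14 arrays on the cell cycle list, so these calls are no further evidence of a fall.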
